A study of Homo sapiens with 20 samples.

Results

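The tetraspanins are a family of small membrane proteins, and their RNA was followed here over human myeloma and B-lymphoblastoid cells and their proteasome inhibitor-resistant derivatives. Members were taken by gene symbol, as TSPAN followed by a number or as CD9, CD37, CD53, CD63, CD81, CD82, CD151, UPK1A, UPK1B, PRPH2 or ROM1. This gave 33 of the 18305 genes listed. In bortezomib-resistant AMO1 and RPMI-8226 cells, CD37 and CD53 fell from between 17.4 and 129.5 FPKM to under 1, while TSPAN4 and TSPAN9 rose. In bortezomib-resistant L363 and ARH-77 cells, CD37 and CD53 were not called.

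A tetraspanin crosses the membrane in several passes and carries a large extracellular loop held by disulfide bonds. Tetraspanins bind each other and a set of partners, among them integrins, immunoglobulin superfamily proteins and the protease ADAM10, and so gather these proteins into patches of membrane. CD37 and CD53 are found mainly on leukocytes, CD81 is found on most cell types, CD63 sits in late endosomes and on exosomes, and CD151 binds laminin-binding integrins. The TspanC8 members escort ADAM10 out of the endoplasmic reticulum, and the uroplakins and the pair PRPH2 and ROM1 serve the urothelium and the photoreceptor.

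RNA-seq was done on AMO1, L363 and RPMI-8226, which are human myeloma lines, and on ARH-77, a human B-lymphoblastoid line. Wild-type (WT) cells of the 4 lines were set beside bortezomib-resistant (BtzR) cells of the same lines and, for AMO1 and L363, cells resistant to carfilzomib (CfzR). Both drugs inhibit the proteasome, and the resistant cells were cultured in 90 nM of the drug they resist, so resistance and the presence of drug cannot be told apart. There were 10 groups of 2 libraries, 20 in all. Each resistant group was 1 derived line, and whether it arose from 1 clone is not given in the sources used here. The replicates were described as biological. A p-value below rests on the spread between replicate libraries within groups, pooled over all 10 groups and so over all 4 lines. It does not measure the spread between separately derived resistant lines.

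The libraries labelled AMO1 CfzR stood apart from their label. Over the genes tested, the Pearson r of their log2(FPKM + 1) values was 0.986 to 0.992 with L363 libraries and 0.878 to 0.883 with the remaining AMO1 libraries, given as a description across genes with no test. Where AMO1 WT and L363 WT were at least 1 log2 unit apart (2180 genes), 94.7% of the values sat closer to L363 WT. They are called the libraries labelled AMO1 CfzR below and were set against both WT lines, and every count of members called in a comparison of other groups was the same when they were left out of the fit. The plasma cell list (SDC1, TNFRSF17, PRDM1, IRF4, XBP1 and JCHAIN) summed to between 1325 and 8021 FPKM in the myeloma libraries and to between 214 and 222 FPKM in ARH-77. The B cell list (MS4A1, PAX5, CD22 and BLK) summed to between 371 and 506 FPKM in ARH-77 and to at most 0.56 FPKM in AMO1 and L363. Between 10455 and 11023 genes reached 1 FPKM in a library. FPKM is a fragment count divided by transcript length and by the library's mapped fragments. No counts were used here, so depth is unknown, and a value of 0 is reported only as listed at 0.

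CD63 held the largest share of the RNA of the family in every myeloma library, although its share in RPMI-8226 overlapped that in ARH-77. Summed over the 33 members, the family held 417 to 703 FPKM in a library, and CD63 made up 42.6% to 56.0% of it in AMO1 and L363, 24.5% to 30.1% in RPMI-8226 and 20.2% to 26.1% in ARH-77. CD63, CD81 and TSPAN3 were the 3 members with a mean of at least 10 FPKM in every group, and 15 members reached that mean in at least 1 group. A mean of 1 FPKM in at least 1 group, the minimum for a test, was reached by 25 members, and a member could pass through the 1 group where it was high. TSPAN9 and TSPAN11 passed only through the BtzR groups in which they were then called higher. Those calls, and the counts below that hold them, are therefore not independent of this filter. The other 8 were TSPAN1, TSPAN2, TSPAN8, TSPAN16, TSPAN19, TSPAN32, PRPH2 and UPK1A, none of which went above 1.02 FPKM in a library. No member was listed at 0 in every library.

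**Figure D1:**
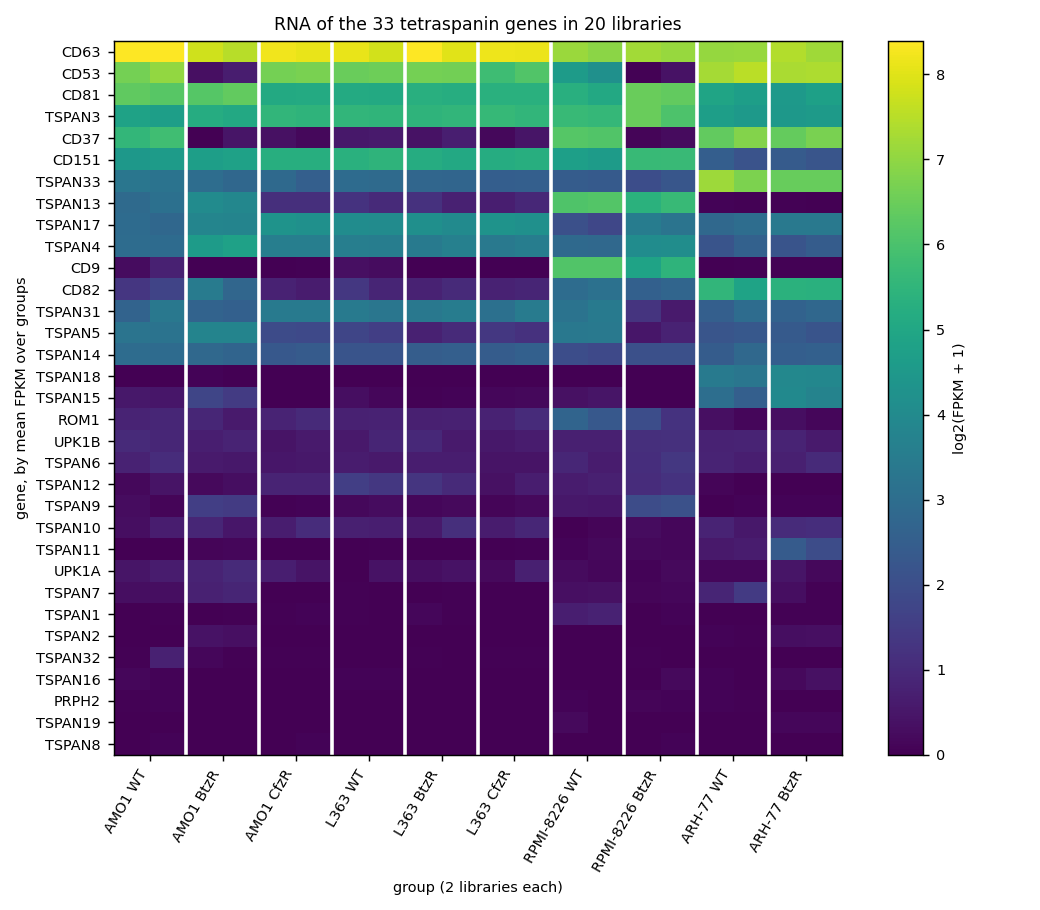
RNA of the 33 members (rows, ordered by mean FPKM) in the 20 libraries (columns, 2 per group), coloured by log2(FPKM + 1). CD63, CD81 and TSPAN3 were bright in every group, CD37 and CD53 were dark in AMO1 BtzR and RPMI-8226 BtzR, and TSPAN33 and TSPAN18 were brightest in ARH-77.

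Of the 4 lines made resistant to bortezomib, AMO1 and RPMI-8226 held most of the changes in the family. A member was called where limma's moderated test on log2(FPKM + 1) gave an adjusted p under 0.05 and a difference of at least 1 log2 unit, and the added 1 FPKM makes this difference too small for genes near 0 FPKM. In AMO1 BtzR, 4 of the 25 members tested were called higher (TSPAN4, CD82, TSPAN9 and TSPAN15) and 2 lower (CD53 and CD37), where 4.61% of the 13089 genes tested were called higher and 4.57% lower. In RPMI-8226 BtzR, 5 members were called higher (TSPAN9, TSPAN17, TSPAN4, CD81 and CD151) and 4 lower (CD37, CD53, TSPAN5 and TSPAN31), against 5.91% and 7.92% of all genes tested. In ARH-77 BtzR, 2 members were called higher (TSPAN11 and TSPAN15) and 0 lower, against 0.955% and 0.649%, with 6 members and 26.7% of all genes at an unadjusted p under 0.05. In L363 BtzR, limma called 0 members in either direction, against 1.02% higher and 1.05% lower among all genes, and 4 members and 23.5% of all genes had an unadjusted p under 0.05. With backgrounds near 1%, 0 of 25 members is a share near the background, and the counts at an unadjusted p in these lines were not above theirs. The median difference of the members was 0.04 log2 units in AMO1 BtzR and 0.03 in RPMI-8226 BtzR, beside -0.0017 and 0.05 over all genes tested. In each of these lines most members were not called.

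CD37 and CD53 were the 2 members called lower in at least 2 of the 4 BtzR comparisons, as were 1.56% of all genes tested. TSPAN4, TSPAN9 and TSPAN15 were called higher in at least 2, against 1.09% of genes. These 4 comparisons shared no library. By limma's moderated F test, the BtzR effect differed between the 4 lines, with a range of at least 1 log2 unit, for 14 of the 25 members and for 32.6% of all genes tested. Those 14 were CD37, CD53, CD81, CD82, CD151, TSPAN4, TSPAN5, TSPAN7, TSPAN9, TSPAN11, TSPAN13, TSPAN15, TSPAN17 and TSPAN31. Among them, TSPAN9 and TSPAN11 passed the filter only through BtzR groups, and TSPAN7 only through ARH-77 WT.

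**Figure D2:**
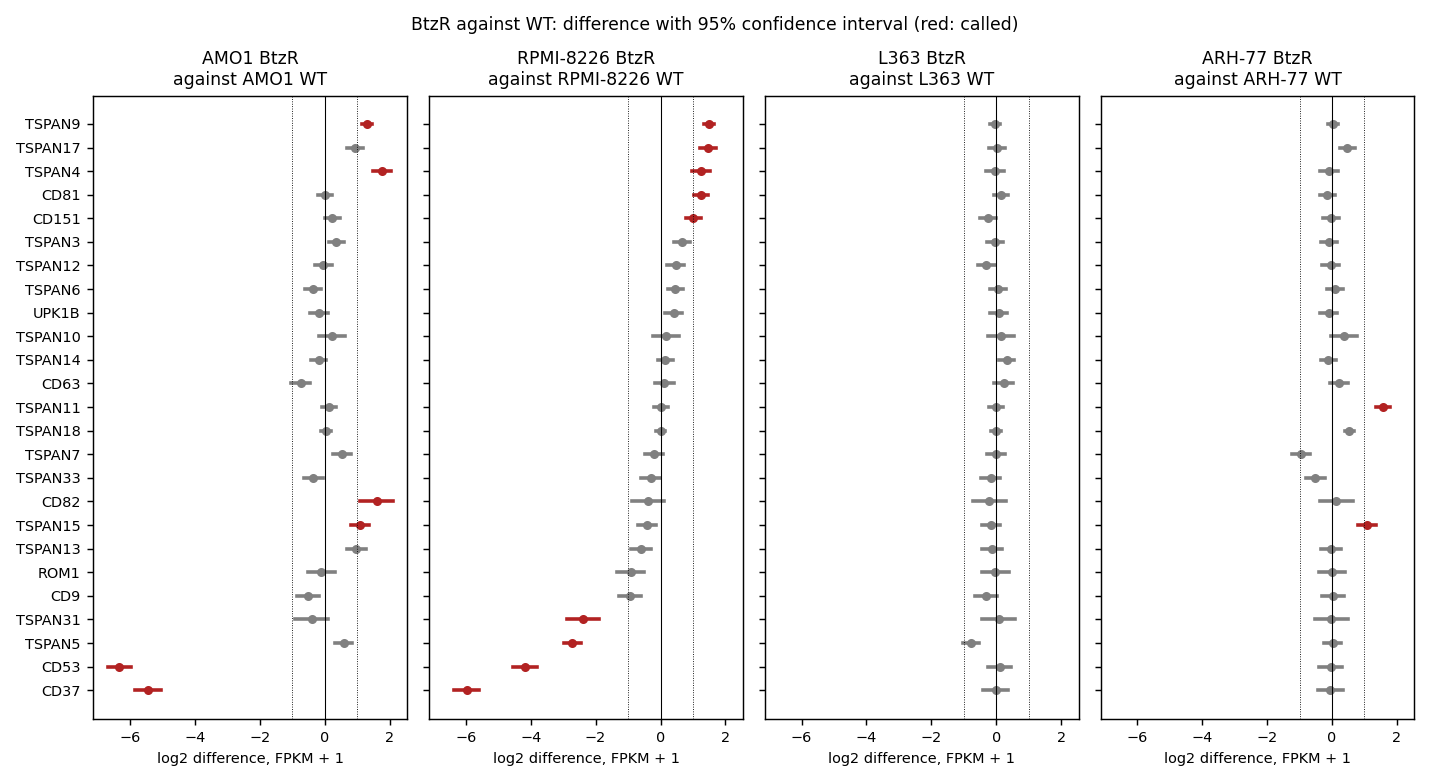
Difference between BtzR and WT libraries in log2(FPKM + 1) for the 25 members tested, with the 95% confidence interval from limma (2 libraries per group), in each of the 4 lines. Red marks called members and dotted lines mark 1 log2 unit. CD37 and CD53 lie below -4 in AMO1 and RPMI-8226, and their intervals include 0 in L363 and ARH-77.

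Among the leukocyte tetraspanins, CD37 showed an on or off pattern over the groups. CD37, a target of antibodies in B-cell malignancies, read 45.9 and 55.6 FPKM in AMO1 WT, and its AMO1 BtzR values were 0 and 0.40. In RPMI-8226 it read 71.9 and 68.6 FPKM in WT and 0.090 and 0.18 in BtzR. Both resistant groups lay wholly below their WT cells, by -5.44 log2 units (SE 0.18, adjusted p = 1.4e-11) in AMO1 and by -5.97 (SE 0.18, adjusted p = 1.0e-12) in RPMI-8226. ARH-77 kept high values in WT (82.1 and 112.8 FPKM) and in BtzR (84.3 and 102.4 FPKM), with overlapping groups and an interval of the difference from -0.44 to 0.34. L363 held at most 0.62 FPKM in any of its 6 libraries, so that a fall could not have been seen there.

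CD53, another leukocyte tetraspanin, was abundant in AMO1 WT (99.9 and 129.5 FPKM) and read 0.27 and 0.59 FPKM in AMO1 BtzR. The difference of -6.34 log2 units (SE 0.17, adjusted p = 1.2e-12) was larger than that of CD37 on this scale, an order that depends on the added 1 FPKM, since with 0.01 FPKM added CD37 reached -9.62 and CD53 -8.12. RPMI-8226 started lower, at 23.4 and 17.4 FPKM in WT, and read 0.040 and 0.32 FPKM in BtzR (log2 difference -4.18, SE 0.17, adjusted p = 2.1e-11). Unlike CD37, CD53 was high in L363, at 88.9 and 92.0 FPKM in WT and 98.3 and 96.5 in BtzR, so that a fall could have been seen there. The interval of the L363 BtzR difference ran from -0.25 to 0.46, and that of ARH-77 BtzR from -0.40 to 0.31. The summed FPKM of the family was 661 and 703 in AMO1 WT and 456 and 417 in AMO1 BtzR, and CD53 and CD63 were the members with the largest FPKM differences in it.

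In bulk RNA, fewer expressing cells and less RNA per cell cannot be told apart. The B cell list moved with CD37 and CD53 in RPMI-8226, where its sum was 17.8 and 19.1 FPKM in WT and 0.34 and 0.66 in BtzR. Nearly all of the WT sum was BLK (17.2 and 18.5 FPKM), the 1 of 4 markers that reached 1 FPKM, and MS4A1 was at or under 0.03 FPKM in all 4 RPMI-8226 libraries. In AMO1 the B cell list stayed at or under 0.56 FPKM, and the list of other cell types summed to 20.3 and 28.8 FPKM in WT against 6.68 and 7.56 in BtzR, with 3 of 9 markers (KRT8, CD3E and LYZ) at 1 FPKM or more in WT. The sum of the plasma cell list was also lower in both resistant lines. In AMO1 it was 7827 and 6377 FPKM in WT against 4100 and 4496 in BtzR. In RPMI-8226 it was 2991 and 2762 FPKM in WT against 1566 and 1325 in BtzR. All 6 of its markers stayed above 1 FPKM, and they did not move together. TNFRSF17 read 94.0 and 98.1 FPKM in RPMI-8226 WT and 7.86 and 4.93 in BtzR. JCHAIN went from 2523 and 2282 FPKM to 1044 and 822 there. IRF4, PRDM1 and XBP1 were higher in RPMI-8226 BtzR, with XBP1 at 246 and 248 FPKM in WT and 341 and 327 in BtzR. SDC1 overlapped between these groups. In AMO1, SDC1 and JCHAIN had the largest FPKM falls, while PRDM1 rose from 22.5 and 30.2 FPKM to 36.9 and 38.8. The part of these markers in the falls was not tested. RefSeq places CD37 over parts of TEAD2 and SLC6A16, which stayed under 1 FPKM in all libraries, and CD53 over part of LRIF1, which read 11.2 and 12.1 FPKM in AMO1 WT and 6.66 and 5.52 in BtzR. Whether counting used strand is not given in the sources used here, so reads of overlapping genes may be shared.

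The starts of CD53 are printed because it fell in both AMO1 and RPMI-8226, with letters of the kind bound by haematopoietic factors in capitals. RefSeq on GRCh38.p14 gave a window of 250 bases before to 50 after a start for 25 of the 33 members, and CD37 had no entry. The first CD53 window is chr1:110870960-110871259 and the second chr1:110872898-110873197, both on the + strand and read 5′ to 3′. Capitals mark the octamer ATGCAAAT and letters of the PU-box type, each on either strand. The first PU-box form searched was GAGGAA. The second was AGGAAG, which overlaps the first where both occur together.
CD53 first start: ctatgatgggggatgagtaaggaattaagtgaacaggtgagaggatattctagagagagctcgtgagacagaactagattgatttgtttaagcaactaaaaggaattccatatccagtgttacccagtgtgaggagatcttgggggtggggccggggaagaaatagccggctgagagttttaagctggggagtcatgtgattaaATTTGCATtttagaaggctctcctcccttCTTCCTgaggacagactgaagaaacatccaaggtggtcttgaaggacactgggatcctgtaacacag
CD53 second start: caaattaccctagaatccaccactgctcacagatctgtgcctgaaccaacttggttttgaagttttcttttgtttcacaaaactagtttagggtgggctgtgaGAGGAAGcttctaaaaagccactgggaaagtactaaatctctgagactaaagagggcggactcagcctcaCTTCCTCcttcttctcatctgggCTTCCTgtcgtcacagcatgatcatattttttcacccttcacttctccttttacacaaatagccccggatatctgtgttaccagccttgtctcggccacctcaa
The octamer was present in the first window and in 1.77% of the 35116 windows in the table. GAGGAA was held by 27.9% and AGGAAG by 33.6% of all windows, so that finding them is common. The windows held 3 and 4 CpG against a median of 14, and 29.6% of all windows held at most 4. These matches are a description chosen after the values were seen, and no binding was measured.

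CD81, a widely expressed tetraspanin that is abundant on lymphocytes, rose in RPMI-8226 BtzR and was called in no other BtzR comparison. It read 38.6 and 32.6 FPKM in RPMI-8226 WT and 88.3 and 81.4 in BtzR, with no overlap between groups (log2 difference 1.24, SE 0.10, adjusted p = 8.9e-08). In AMO1 the groups overlapped, at 80.0 and 73.4 FPKM in WT and 71.7 and 82.2 in BtzR, with an interval from -0.21 to 0.22. ARH-77 held the lowest values, 28.8 and 25.0 FPKM in WT and 22.5 and 26.1 in BtzR. The F test of the BtzR effect between lines gave an adjusted p of 3.6e-06 for CD81.

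CD82, known as a suppressor of metastasis, rose in AMO1 BtzR from 1.53 and 2.33 FPKM to 10.3 and 5.81 FPKM (log2 difference 1.59, SE 0.24, adjusted p = 6.0e-05). The resistant replicates differed more from each other than those of most members. ARH-77 held the highest CD82, at 45.0 and 28.5 FPKM in WT and 39.7 and 38.9 in BtzR, where the groups overlapped. RPMI-8226 read 6.83 and 7.70 FPKM in WT and 5.01 and 5.60 in BtzR, a difference not called (interval -0.90 to 0.12). In L363 every library lay between 0.73 and 1.54 FPKM. TSPAN32, the fifth of this set, did not pass the filter.

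**Figure D3:**
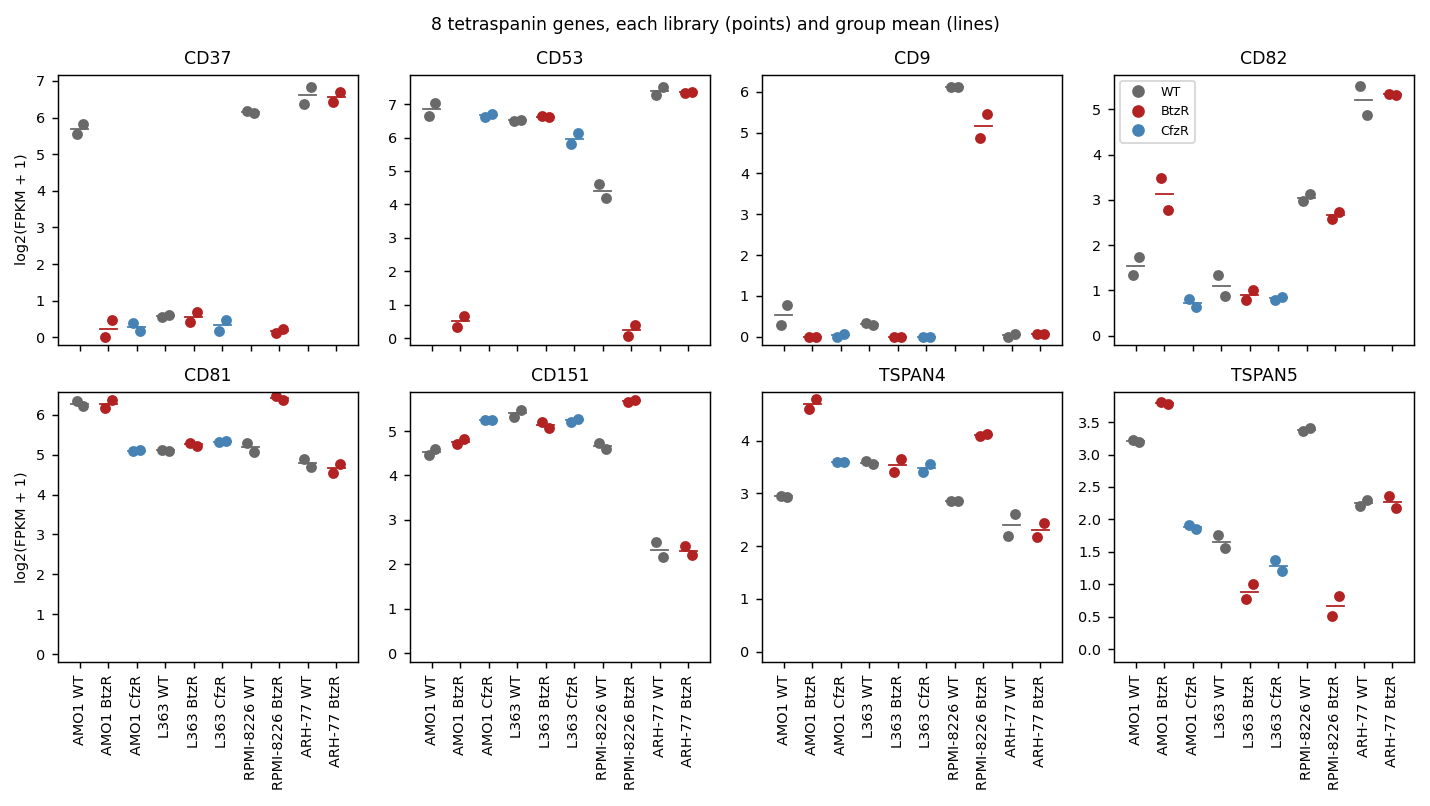
FPKM of 8 members on the log2(FPKM + 1) scale in each of the 20 libraries (points, 2 per group) with the mean of each group (lines), coloured by WT, BtzR and CfzR. CD37 and CD53 dropped in AMO1 BtzR and RPMI-8226 BtzR, CD9 was high in RPMI-8226, and TSPAN5 was lowest in RPMI-8226 BtzR.

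Of the broadly expressed members, TSPAN4 was called in 2 BtzR comparisons and CD151 in 1, and CD63, CD9 and TSPAN3 in none. CD63, the exosome marker, read 331.6 and 334.6 FPKM in AMO1 WT and 220.5 and 177.8 in AMO1 BtzR. The groups did not overlap, but the difference of -0.75 log2 units (interval -1.04 to -0.46, adjusted p = 3.6e-04) was under the size needed for a call. RPMI-8226 WT and BtzR overlapped, at 140.4 and 122.7 against 148.3 and 137.4 FPKM. L363 WT read 277.2 and 225.9 FPKM and its BtzR cells 335.7 and 257.3, and ARH-77 WT read 133.4 and 137.7 FPKM against 170.5 and 145.6 in BtzR. Neither of these was called.

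CD9, which acts in adhesion and cell fusion, was expressed above 1 FPKM in RPMI-8226 alone. RPMI-8226 WT read 68.5 and 68.1 FPKM and BtzR 28.4 and 42.8, with a difference of -0.95 log2 units (interval -1.29 to -0.61, adjusted p = 1.3e-04) that fell just short of a call. In all other groups CD9 was at or under 0.71 FPKM, and both libraries of AMO1 BtzR, L363 BtzR and L363 CfzR listed it at 0. EPCAM, an epithelial marker, was likewise high in RPMI-8226 alone, with under 1 FPKM in every other library. It read 56.2 and 56.6 FPKM in RPMI-8226 WT and 68.1 and 58.1 in BtzR, so that it did not fall with CD9. KRT8, the other epithelial marker listed, did not follow these lines, at 7.01 and 10.7 FPKM in AMO1 WT and 5.76 and 6.26 in RPMI-8226 WT.

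CD151, the partner of laminin-binding integrins, rose in RPMI-8226 BtzR from 25.8 and 23.1 FPKM to 49.1 and 51.2 FPKM. The difference of 1.01 log2 units (SE 0.11, adjusted p = 2.4e-06) was at the edge of the size threshold, and it was 0.93 without RPMI-8226 WT replicate 2, 0.98 without RPMI-8226 BtzR replicate 2 and 0.97 after quantile normalization, none of which was a call. In AMO1 it read 21.1 and 23.2 FPKM in WT and 25.3 and 27.0 in BtzR (interval -0.0070 to 0.47). TSPAN3 read 49.3 and 46.7 FPKM in RPMI-8226 WT and 88.7 and 65.8 in BtzR, a difference of 0.66 log2 units (adjusted p = 1.7e-04) that was not called. Its other libraries lay between 21.4 and 48.8 FPKM.

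TSPAN4, a tetraspanin of migrasomes, rose in the same lines in which CD37 and CD53 fell. It read 6.76 and 6.66 FPKM in AMO1 WT and 23.3 and 26.8 in BtzR (log2 difference 1.75, SE 0.13, adjusted p = 6.6e-08). RPMI-8226 WT read 6.28 and 6.21 FPKM and BtzR 15.9 and 16.5 (log2 difference 1.25, SE 0.13, adjusted p = 1.3e-06). In L363 the WT and BtzR libraries overlapped, between 9.65 and 11.6 FPKM, with an interval from -0.33 to 0.23. ARH-77 WT (3.54 and 5.06 FPKM) and BtzR (3.52 and 4.42 FPKM) also overlapped.

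The TspanC8 members, escorts of ADAM10, were tested in full (6 of 6), and the lines differed in which of them led. The 6 genes summed to 16.2 to 42.3 FPKM in the myeloma libraries and to 117 to 164 FPKM in ARH-77. TSPAN33, which is known from activated B cells, made up 86.5% and 82.6% of that sum in ARH-77 WT. TSPAN17 led in L363 WT, with 54.5% in both libraries, and no member exceeded 28.5% in AMO1 WT, where TSPAN33 and TSPAN5 held similar shares.

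In RPMI-8226 the leading TspanC8 gene changed. TSPAN5 fell from 9.24 and 9.62 FPKM in WT to 0.43 and 0.76 in BtzR (log2 difference -2.72, SE 0.12, adjusted p = 6.0e-11), and from 46.0% and 49.5% of the TspanC8 sum to 2.47% and 4.69%. TSPAN17 rose from 3.13 and 2.47 FPKM to 10.6 and 8.42 FPKM (log2 difference 1.47, SE 0.11, adjusted p = 4.9e-08), and from 15.6% and 12.7% of the sum to 61.0% and 51.9%. The sum itself was 20.1 and 19.4 FPKM in WT and 17.4 and 16.2 in BtzR. TSPAN15 was listed at 0 in both RPMI-8226 BtzR libraries, from 0.29 and 0.38 FPKM in WT.

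TSPAN5 did not fall in the other lines to the size of a call. In AMO1 it read 8.32 and 8.17 FPKM in WT and 13.0 and 12.7 in BtzR, a difference of 0.58 log2 units (adjusted p = 9.2e-04). In L363 it read 2.37 and 1.95 FPKM in WT and 0.70 and 1.00 in BtzR, a difference of -0.77 (interval -1.03 to -0.52, adjusted p = 4.2e-04). The groups did not overlap in either line, and the 2 differences had opposite signs. ARH-77 WT (3.59 and 3.93 FPKM) and BtzR (4.15 and 3.50 FPKM) overlapped. The F test between lines gave an adjusted p of 2.3e-09.

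The start of TSPAN5 is printed beside those of CD53 to show how unlike they are in base composition, although both genes fell in RPMI-8226 BtzR. The window is chr4:98658562-98658861 on the - strand of GRCh38.p14, read 5′ to 3′, and capitals mark GGGCGG, the GC box, on either strand (CCGCCC).
TSPAN5 start: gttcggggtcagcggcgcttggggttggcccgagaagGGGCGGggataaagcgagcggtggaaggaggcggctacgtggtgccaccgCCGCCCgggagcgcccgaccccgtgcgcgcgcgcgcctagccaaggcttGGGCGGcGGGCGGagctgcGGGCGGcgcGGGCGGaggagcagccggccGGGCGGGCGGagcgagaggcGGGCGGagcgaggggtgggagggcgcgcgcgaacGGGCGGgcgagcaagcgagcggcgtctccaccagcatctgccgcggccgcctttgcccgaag
It held 50 CpG, a number reached by 1.29% of all windows, and 78.3% of its bases were G or C, against 45.7% and 45.3% in the CD53 windows. GGGCGG was present in 45.0% of all windows.

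In AMO1 and ARH-77 BtzR, TSPAN15 was the TspanC8 member called. TSPAN17 read 6.59 and 5.92 FPKM in AMO1 WT and 13.1 and 12.7 in BtzR, a difference of 0.94 log2 units (adjusted p = 9.7e-06) just under a call. TSPAN15 rose from 0.45 and 0.42 FPKM to 2.34 and 1.75 in AMO1 BtzR (log2 difference 1.08, SE 0.13, adjusted p = 1.0e-05), which was 0.94 and no call without AMO1 BtzR replicate 1. In ARH-77 it rose from 7.13 and 4.88 FPKM to 14.9 and 12.4 (log2 difference 1.08, SE 0.13, adjusted p = 5.7e-05), which was 0.85 without ARH-77 WT replicate 2 and 0.96 without ARH-77 BtzR replicate 1, neither a call. TSPAN33 read 141.5 and 105.8 FPKM in ARH-77 WT and 85.6 and 85.2 in BtzR, a difference of -0.51 log2 units (adjusted p = 0.0187) that was not called, and 2.98 to 8.91 FPKM in the myeloma libraries. TSPAN14 ranged from 2.64 to 6.78 FPKM over all libraries, and TSPAN10 did not exceed 1.18 FPKM.

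**Figure D4:**
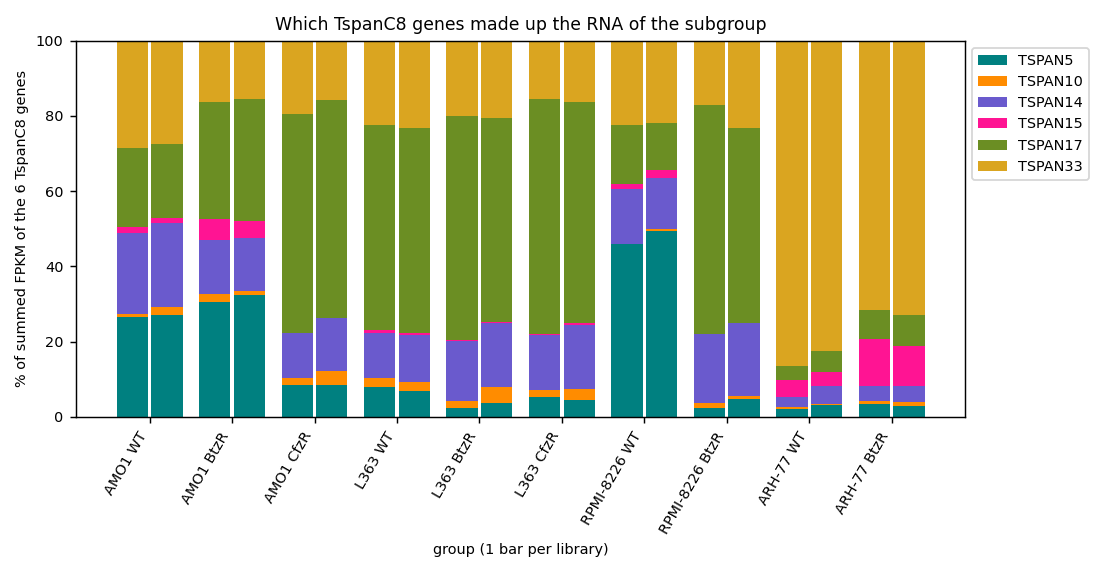
Share of each of the 6 TspanC8 genes in their summed FPKM, as a stacked bar for each of the 20 libraries. TSPAN33 filled most of each ARH-77 bar, and TSPAN5 shrank from 46.0% and 49.5% in RPMI-8226 WT to 2.47% and 4.69% in RPMI-8226 BtzR while TSPAN17 grew.

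Of the remaining members, TSPAN9, known from platelets, was low in every WT group and rose in both AMO1 and RPMI-8226. It read 0.21 and 0.090 FPKM in AMO1 WT and 1.92 and 1.76 in BtzR (log2 difference 1.31, SE 0.074, adjusted p = 3.9e-09). In RPMI-8226 it went from 0.47 and 0.42 FPKM to 2.90 and 3.21 (log2 difference 1.49, SE 0.074, adjusted p = 2.8e-10). All libraries of L363 and ARH-77 stayed at or under 0.21 FPKM. TSPAN11 was above 1 FPKM in ARH-77 BtzR alone, where it rose from 0.48 and 0.56 FPKM in WT to 4.31 and 2.91 (log2 difference 1.58, SE 0.10, adjusted p = 1.0e-07). Both members were tested only because of their level in the BtzR groups in which they were called.

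TSPAN31, a gene often amplified together with CDK4 in sarcomas, fell in RPMI-8226 BtzR from 8.20 and 9.96 FPKM to 1.42 and 0.51 (log2 difference -2.39, SE 0.23, adjusted p = 6.2e-07). All other libraries lay between 4.78 and 10.5 FPKM. TSPAN31 overlaps CDK4 in RefSeq, and CDK4 read 141.1 and 119.6 FPKM in RPMI-8226 WT and 98.7 and 86.4 in BtzR. Whether reads were shared between them was not tested.

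TSPAN13 was highest in RPMI-8226, at 66.4 and 69.9 FPKM in WT and 40.1 and 50 in BtzR, a difference of -0.59 log2 units (adjusted p = 0.00258) that was not called. In AMO1 it went the other way, from 6.48 and 7.54 FPKM to 15.5 and 13.9, a difference of 0.97 (interval 0.67 to 1.28, adjusted p = 5.3e-05) just under a call. TSPAN18, a regulator of calcium entry, read 9.97 and 8.84 FPKM in ARH-77 WT and 14.3 and 13.9 in ARH-77 BtzR and at most 0.05 FPKM elsewhere. ROM1, the photoreceptor disc protein, read 5.58 and 4.01 FPKM in RPMI-8226 WT and 2.92 and 1.34 in BtzR, with no call (log2 difference -0.92, adjusted p = 8.4e-04). TSPAN7 read 0.81 and 1.66 FPKM in ARH-77 WT and 0.23 and 0.030 in BtzR, with a difference of -0.96 that was not called. TSPAN6 and UPK1B stayed between 0.37 and 1.54 FPKM in every library.

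In carfilzomib-resistant L363 cells, limma called 0 of 25 members, where 1.11% of all genes were called higher and 0.825% lower, which is a share near the background. An unadjusted p under 0.05 was found for 6 members and for 18.8% of all genes. TSPAN12, a co-receptor in Norrin signalling, read 1.97 and 1.55 FPKM in WT and 0.31 and 0.60 in CfzR, a difference of -0.93 log2 units (interval -1.19 to -0.66, adjusted p = 1.2e-04). It was called without L363 WT replicate 2 or without L363 CfzR replicate 2. CD53 read 54.6 and 68.7 FPKM in CfzR, below both WT libraries, with an interval from -0.91 to -0.20 and an adjusted p of 0.0559. The same WT libraries served L363 BtzR, in which TSPAN12 read 1.43 and 1.01 FPKM.

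The libraries labelled AMO1 CfzR had 5 members called against AMO1 WT and 0 against L363 WT. Against AMO1 WT, 1 member was called higher (TSPAN17, 1.41 log2 units) and 4 lower (CD37 at -5.40, TSPAN13 at -1.87, TSPAN5 at -1.33 and CD81 at -1.18), beside 7.88% and 9.21% of all genes. Against L363 WT, limma called 0 members, with 0.856% of genes called higher and 0.802% lower, which is again near the background, and 1 member and 16.5% of all genes had an unadjusted p under 0.05. That 1 was TSPAN12 (log2 difference -0.62, adjusted p = 0.00461).

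CD37 shows the pattern in single values, since it read 0.31 and 0.13 FPKM here, 45.9 and 55.6 in AMO1 WT and 0.46 and 0.52 in L363 WT. CD81 read 33.0 and 33.7 FPKM there, 80.0 and 73.4 in AMO1 WT and 34.0 and 33.2 in L363 WT. TSPAN17 read 18.8 and 17.7 FPKM, against 6.59 and 5.92 in AMO1 WT and 16.1 and 15.4 in L363 WT. Of the 6 members at least 1 log2 unit apart between AMO1 WT and L363 WT, 5 had values closer to L363 WT, with TSPAN12 the exception. Hence the differences from AMO1 WT cannot be told apart from a difference between the lines AMO1 and L363.

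**Figure D5:**
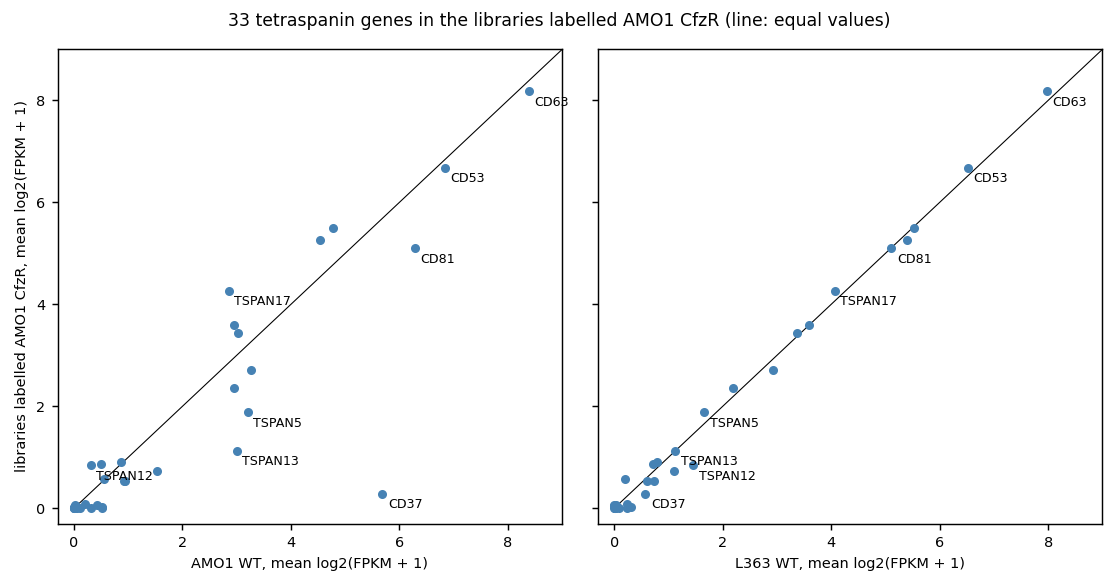
Mean log2(FPKM + 1) of the 33 members in the libraries labelled AMO1 CfzR against AMO1 WT (left) and against L363 WT (right), with a line of equal values. CD37, CD81, TSPAN5 and TSPAN13 lie below the line on the left and near it on the right.

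The WT lines differed in most tested members. By limma's F test, 19 of 25 members differed between the 4 WT lines with a range of at least 1 log2 unit, as did 52.2% of all genes tested. The widest ranges were those of CD9 (6.09), TSPAN13 (6.06) and CD37 (6.03). CD82, TSPAN15, TSPAN18 and TSPAN33 were called higher in ARH-77 WT than in each myeloma WT line, beside 6.36% of genes, and CD151 and TSPAN13 lower, beside 3.2%. These 3 comparisons share the ARH-77 libraries, and with 1 B-lymphoblastoid line they compare lines and not cell types.

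CD151 read 4.66 and 3.47 FPKM in ARH-77 WT, where the lowest myeloma library of any group read 21.1 FPKM. TSPAN33 stood 3.69 log2 units above AMO1 WT, 4.02 above L363 WT and 4.52 above RPMI-8226 WT. CD37 was high in ARH-77, RPMI-8226 and AMO1 WT and near 0 in L363 WT, and its difference between ARH-77 and RPMI-8226 WT (0.45, interval 0.058 to 0.84, adjusted p = 0.0393) was not called. CD53 followed another order of mean levels, with ARH-77 first, then AMO1, L363 and RPMI-8226, and ARH-77 differed from AMO1 by 0.55 and from L363 by 0.88 log2 units, neither a call. TSPAN13 read at most 0.050 FPKM in ARH-77 WT, against 1.35 and 1.02 FPKM in L363 WT, and its call against L363 (-1.07) rests on values near 1 FPKM.

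Known partners of the tetraspanins were listed apart from the family, and 27 of 28 were in the table and 24 tested. In AMO1 BtzR, 1 was called higher (IGSF3) and 3 lower (ITGB7, IFITM1 and FCER2). In RPMI-8226 BtzR, 3 were called higher (IFITM1, ITGA6 and ITGB1) and 3 lower (ITGB7, FCER2 and CR2). L363 BtzR had 1 partner called lower (IFITM1), L363 CfzR 1 lower (ITGA6), and ARH-77 BtzR 1 higher (FCER2). The shares of all genes called higher and lower were 4.61% and 4.57% in AMO1 BtzR, 5.91% and 7.92% in RPMI-8226 BtzR and between 0.649% and 1.11% in the other 3 comparisons, so that 1 of 24 partners there is near the background.

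The integrin chain ITGB7 fell with CD37 and CD53 in both lines. It read 40.4 and 72.0 FPKM in AMO1 WT and 0.31 and 0.45 in BtzR (log2 difference -5.32, SE 0.24, adjusted p = 2.7e-10). RPMI-8226 WT read 1257 and 974 FPKM and BtzR 72.3 and 102 (log2 difference -3.67, SE 0.24, adjusted p = 5.1e-09). ITGB1, which pairs with the laminin-binding chains that CD151 holds, went from 11.5 and 13.1 FPKM in RPMI-8226 WT to 38.3 and 49.3 in BtzR, and ITGA6 from 0.16 and 0.20 FPKM to 4.66 and 5.73. Both rose in RPMI-8226 BtzR, by 1.74 log2 units (adjusted p = 8.9e-09) for ITGB1 and 2.39 (adjusted p = 1.1e-10) for ITGA6. AMO1, in which CD151 was not called, held ITGB1 at 77.0 and 69.1 FPKM in WT and 73.2 and 65.4 in BtzR. Its ITGA6 read 12.1 and 10.7 FPKM in WT and 7.02 and 7.60 in BtzR (log2 difference -0.58, adjusted p = 5.3e-04), which was not called. ITGA3, another laminin-binding chain, read 6.23 and 7.08 FPKM in AMO1 WT and 3.04 and 3.83 in BtzR (log2 difference -0.79, adjusted p = 5.1e-05), also not called. In RPMI-8226 BtzR, ITGA3 was 0.60 log2 units higher than in WT (adjusted p = 4.7e-04), again not called. In L363 CfzR, ITGA6 fell by 1.11 log2 units (adjusted p = 7.5e-06) while CD151 was not called (interval -0.40 to 0.082). ITGB1 was higher by 0.76 in L363 CfzR (adjusted p = 5.1e-04), 0.48 in L363 BtzR (adjusted p = 0.0143) and 0.44 in ARH-77 BtzR (adjusted p = 0.0216). None of these ITGB1 differences was a call, and CD151 was not called in these comparisons.

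Among the partners of CD81, IFITM1 moved in opposite directions between lines. It fell in AMO1 BtzR from 20.9 and 23.4 FPKM to 2.25 and 0.38 (log2 difference -3.45, SE 0.31, adjusted p = 4.6e-07) and rose in RPMI-8226 BtzR from 0.40 and 0.79 FPKM to 46.0 and 51.9 (log2 difference 4.98, SE 0.31, adjusted p = 3.6e-09). IFITM1 has close paralogs, so its values are uncertain where reads were split between copies. CR2, a complement receptor that binds CD81, fell in RPMI-8226 BtzR from 5.99 and 5.94 FPKM to 0.060 and 0.13 (log2 difference -2.67, SE 0.14, adjusted p = 3.6e-10).

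ADAM10, the protease carried by the TspanC8 members, was not called in any BtzR comparison. It read 61.6 and 66.0 FPKM in RPMI-8226 WT and 56.3 and 61.1 in BtzR (interval -0.33 to 0.090), in the libraries in which TSPAN5 fell and TSPAN17 rose. FCER2, a substrate of ADAM10, fell in RPMI-8226 BtzR from 11.4 and 11.5 FPKM to 0.30 and 0.43 (log2 difference -3.19, SE 0.15, adjusted p = 1.9e-10). In AMO1 BtzR it fell from 5.55 and 3.78 FPKM to 0.58 and 0.73 (log2 difference -1.76, SE 0.15, adjusted p = 3.5e-07). It rose in ARH-77 BtzR from 62.0 and 46.5 FPKM to 127.5 and 100.4 (log2 difference 1.06, SE 0.15, adjusted p = 2.5e-04). Of the 5 exosome machinery genes and 5 tetraspanin-modifying enzymes tested, 0 were called by limma in a BtzR comparison, which for lists so short is near the shares over all genes given above.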

How the data were processed

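RNA-seq of 20 libraries was used. The authors deposited FPKM values for 18305 genes by NCBI gene ID, and the submitters' processing notes name HISAT2 2.0.4, Bowtie2 2.2.5 and RSEM 1.2.12, while the genome build and the use of strand are not given in the sources used here. Groups came from the sample titles. limma 3.58.1 in R 4.3.3 was fitted to log2(FPKM + 1) of all libraries with 10 group means (10 residual degrees of freedom) and a mean-variance trend. The 13089 genes with a mean of at least 1 FPKM in some group were tested two-sided, with Benjamini-Hochberg adjustment over all of them. In a test on simulated data for AMO1 BtzR, 200 of 200 genes changed by 2 log2 units were recovered and 1 unchanged gene was called among 13013 genes. The changed genes were drawn only from genes well above 0 FPKM, with normal noise, and the change was larger than the threshold. The test checks that the code runs as intended. It does not show how well low members or differences near 1 log2 unit are recovered. The smallest p of an exact permutation of 2 against 2 libraries is 0.33, and that test was left out. Values are given for members called in a comparison or with a mean of 10 FPKM or more in some group. Of the partners called, values are given for a part, and those called in the libraries labelled AMO1 CfzR are not listed. The members and lists were chosen with earlier results of these data known. 1 gene of the partner and B cell lists is not reported here, and their sums and counts leave it out. Promoter windows and overlaps came from RefSeq GRCh38.p14. Alternatives were other pseudocounts, filters, scalings, trend, replicate block, libraries fitted and each library left out. Figures used Python 3.11.15 and matplotlib 3.10.9.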

Additional observations from a re-analysis of the deposited data

Results flagged for a closer look

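In 14 members the BtzR effect differed between the 4 lines by limma's moderated F test (adjusted p under 0.05 and a range of at least 1 log2 unit), which is what flagged them. The range of the 4 log2 differences was 6.44 for CD53 (adjusted p = 1.6e-11), 5.96 for CD37 (3.0e-11) and 3.30 for TSPAN5 (2.3e-09). It was 2.46 for TSPAN31, 1.98 for CD82, 1.84 for TSPAN4, 1.61 for TSPAN11, 1.57 for TSPAN13 and 1.54 for TSPAN9. For TSPAN15 it was 1.50, for TSPAN7 1.48, for TSPAN17 1.44, for CD81 1.38 and for CD151 1.27. The adjusted p of these last 11 members lay between 6.6e-09 and 4.0e-04. CD37 was near 0 in L363 WT, so its range includes a line in which no fall could be seen. Groups of 2 libraries were too small to look for single outlying samples.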

How the results depend on the processing

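Of 300 values of the 22 called differences under other settings, 293 stayed called in the same direction, 7 lost the call and 0 reversed. The 7 concerned TSPAN15 and CD151. The pseudocount moved the counts of called members most, which follows from the smaller constant giving low genes larger differences. With 0.1 in place of 1, the count was 10 in AMO1 BtzR (6 with 1), 2 in L363 BtzR, 2 in L363 CfzR, 10 for the libraries labelled AMO1 CfzR against AMO1 WT (5 with 1) and 2 against L363 WT, with 4 members lower in at least 2 BtzR comparisons and 5 lower in ARH-77 WT than in each myeloma line. With 0.01 these were 3 in L363 BtzR, 2 in L363 CfzR, 12 and 2 for the libraries labelled AMO1 CfzR, 5 lower and 5 higher in at least 2 BtzR comparisons, and 6 lower in ARH-77 WT. In ARH-77 BtzR, 1 member was called in place of 2 with a filter of 5 FPKM, which removes TSPAN11, and 1 with the compared libraries alone, where TSPAN15 had an adjusted p of 0.0564. Leaving out 1 library gave 0 to 1 members in L363 CfzR (1 without L363 WT replicate 2 or L363 CfzR replicate 2), 1 to 2 in ARH-77 BtzR (1 without ARH-77 WT replicate 2) and 1 to 2 lower in ARH-77 WT than in each myeloma line (1 without L363 WT replicate 1). The cause of these was not tested. Of 153 differences not called, 24 were called under at least 1 setting and 43 changed sign under one. Depth is unknown, and 2 libraries per group limit the precision of every value.

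Labels share replicate numbers between groups, but neither they nor the methods say that same-numbered libraries were handled together. Across genes, the r between the deviations of same-numbered libraries was -0.0055 in AMO1 BtzR and between 0.120 and 0.245 in the other comparisons. With 2 pairs a comparison, this does not establish a pairing, and the block was kept as an alternative. With the replicate number as a block, 6 members were called in AMO1 BtzR, 9 in RPMI-8226 BtzR, 2 in ARH-77 BtzR and 0 in L363 BtzR, as without it, and it changed no other count.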
